A study of Mus musculus with 6 samples.

Results

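The liver transcripts of 10 genes that make or remodel phosphatidylcholine or take up its lysolipid were compared between Enpp7 knockout and wildtype mice. The 10 genes, Mfsd2a, Pemt, Pcyt1a, Pcyt2, Chka, Chkb, Lpcat1, Lpcat2, Lpcat3 and Gpcpd1, were chosen by symbol from the 23415 genes of the deposited table, and all 10 were found there. Enpp7 encodes alkaline sphingomyelinase, an enzyme of the intestinal brush border that splits sphingomyelin and can also act on lysophosphatidylcholine and platelet-activating factor. The knockout group was made of the libraries of animals 82, 84 and 85 and the wildtype group of those of animals 81, 83 and 90. All 6 mice were of the C57BL/6 strain, and no treatment is named. The genotype was read from the letter K or W at the start of the sample names, and age, sex and the way the allele was made are not given in the sources used here. Total RNA was sequenced, from liver by the sample labels, while the series' design text speaks of intestine. The table holds 1 value per group in FPKM (fragments per kilobase of transcript, scaled to the mapped total), so the spread between mice and the depth of each library are unknown.

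Phosphatidylcholine, the main phospholipid of cell membranes, bile and lipoproteins, is made by a pair of routes in hepatocytes. In the CDP-choline route choline is phosphorylated, activated with CTP and joined to diacylglycerol, and in the second route, which is prominent in liver, phosphatidylethanolamine is methylated. Lysophosphatidylcholine, the lipid left when 1 fatty acid is removed, can be taken up from plasma and given a new fatty acid, and the full breakdown of phosphatidylcholine yields glycerophosphocholine, from which choline is recovered.

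Of the 10 genes, all tested by the authors, Mfsd2a alone passed the authors' test, and it was lower in the knockout livers. Mfsd2a encodes the sodium-dependent carrier that brings lysophosphatidylcholine into cells. A gene counts as called where the authors' deposited table lists a q under 0.05. By that rule 124 of the 11515 tested genes, or 1.08%, were called, 58 of them (0.504%) lower and 66 (0.573%) higher in knockout livers. The other 9 genes held no call, and 0 of them had an unadjusted p under 0.05 in the authors' deposited table, against 5.29% of all tested genes.

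The promoter of Mfsd2a, the called gene, is shown beside that of Lpcat3, which stood beside Mfsd2a in level in wildtype livers and was not called. Each runs 5′ to 3′ from 250 bases before the annotated start to 50 bases after it, from RefSeq (GRCm38.p6), on chr4:122961139-122961438 (minus strand) for Mfsd2a and chr6:124662854-124663153 (plus strand) for Lpcat3. Capitals mark every match to 9 short motifs searched on both strands.
Mfsd2a: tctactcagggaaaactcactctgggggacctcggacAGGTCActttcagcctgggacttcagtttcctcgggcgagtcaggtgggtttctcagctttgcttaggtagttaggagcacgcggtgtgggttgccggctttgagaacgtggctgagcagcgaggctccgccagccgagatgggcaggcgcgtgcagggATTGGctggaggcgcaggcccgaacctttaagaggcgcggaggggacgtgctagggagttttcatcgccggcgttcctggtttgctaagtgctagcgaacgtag
Lpcat3: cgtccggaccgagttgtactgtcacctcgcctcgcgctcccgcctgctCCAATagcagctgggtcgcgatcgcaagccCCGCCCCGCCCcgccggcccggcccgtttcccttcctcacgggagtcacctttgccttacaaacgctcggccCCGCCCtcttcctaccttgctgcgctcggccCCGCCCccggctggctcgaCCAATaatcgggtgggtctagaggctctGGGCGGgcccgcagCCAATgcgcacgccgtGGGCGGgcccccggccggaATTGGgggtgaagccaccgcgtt

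The motifs were the nuclear receptor half-site AGGTCA, the E-box CACGTG, the C/EBP motif TTGCNNAA, the D-box TTANGTAA, the STAT motif TTCNNNGAA, the CRE TGACGTCA, the CCAAT box CCAAT, the GC box GGGCGG and the TATA box TATAAA. No full match of one lies inside a match of another. The Mfsd2a window held 1 nuclear receptor half-site, which occurs in 16.3% of the 32851 promoter windows of this length, and 1 CCAAT box, which occurs in 37.4% of them. Its GC content was 60.3%, against a median of 52.7% over all windows. The Lpcat3 window, at 71% GC, held 4 CCAAT boxes and 6 GC boxes. A GC box is present in 35.7% of windows. These letters are a description of the windows and were not tied to the expression values. Windows were found for 8 of the 10 genes, which leaves Pcyt2 and Gpcpd1 named only.

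Mfsd2a (chromosome 4, 122946851 to 122961188, mm10) stood at 10.7 FPKM in knockout livers and 41.8 FPKM in wildtype livers. The knockout level was 0.255 of the wildtype level, with a 95% interval from 0.183 to 0.354. This is a log2 ratio of knockout over wildtype of -1.97 ± 0.24, where the error here and below is the standard error implied by the authors' z statistic and not an observed spread between mice. In the authors' deposited table Mfsd2a had p = 4.44e-16 and q = 4.26e-13. Among the 58 genes called lower it had the 4th most negative ratio, and its z of -8.14 was the most negative of these. Among all 11456 tested genes with a finite ratio, called or not, its ratio ranked 13th from the most negative. A nutrient-regulated gene in mouse liver, Mfsd2a is known to be induced by fasting. No source used here states the feeding of these mice.

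In wildtype livers Mfsd2a was the 4th most abundant of the 10 genes, close to Lpcat3. In knockout livers it was 7th, below Gpcpd1, Pcyt1a and Chkb. Lpcat3 was 3.80 times as abundant as Mfsd2a in knockout livers and 1.05 times in wildtype livers, and Gpcpd1 was 2.06 times as abundant in knockout livers and 0.683 times in wildtype livers. The remaining 9 genes kept their order among themselves in both groups. Without values per mouse, it cannot be judged which neighbours in this order differ beyond their spread.

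**Figure D1:**
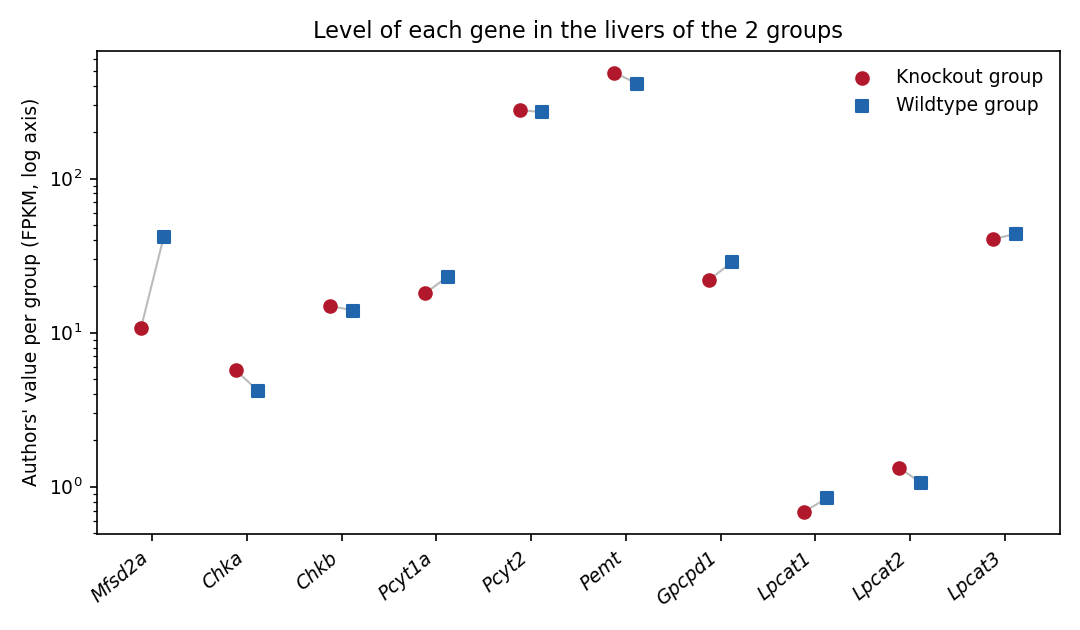
Authors' value per group in FPKM on a log axis for the 10 genes; circles are the knockout group, squares the wildtype group, and a line joins the 2 values of a gene. Mfsd2a has the steepest line, at 10.7 FPKM in knockout livers and 41.8 FPKM in wildtype livers. The other 9 genes have less steep lines, with log2 ratios of knockout over wildtype between -0.38 and 0.46.

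Within 500 kb on chromosome 4, measured between leftmost bases, 7 other genes were tested, and 0 of them passed or had an unadjusted p under 0.05 in the authors' deposited table. Over all tested genes 1.08% passed and 5.29% had such a p, so a count of 0 among 7 is near the background. The log2 ratios of the 7 genes lay between -0.41 and 0.15. The nearest on each side were Cap1, an actin-binding protein, at 29.4 FPKM in knockout livers and 29.6 FPKM in wildtype livers (log2 ratio -0.01 ± 0.22), and Mycl1, a MYC family factor, at 2.08 FPKM in knockout livers and 2.76 FPKM in wildtype livers (log2 ratio -0.41 ± 0.31). No other gene of the table shares the locus of Mfsd2a.

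**Figure D2:**
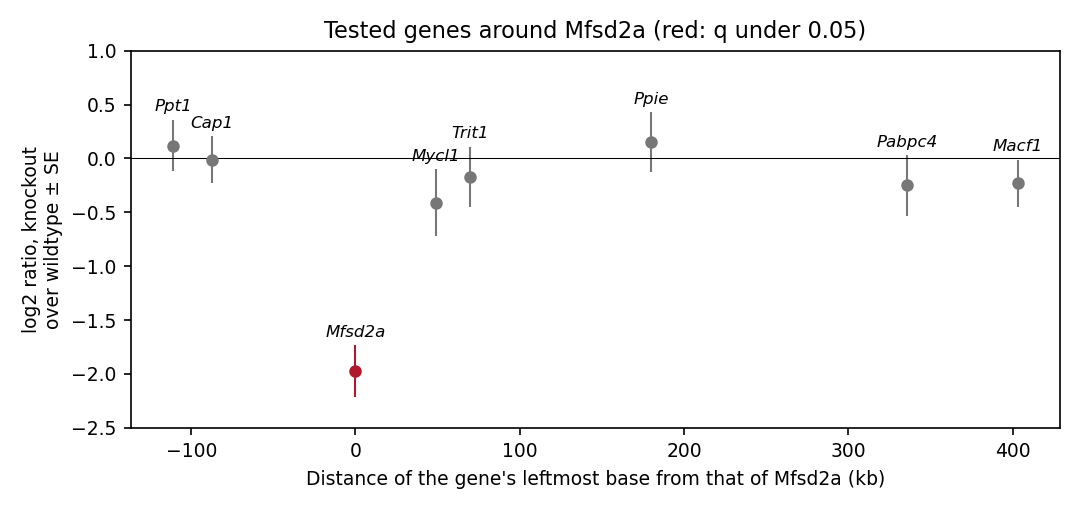
The log2 ratio of knockout over wildtype with its standard error (points and bars) for tested genes within 500 kb of Mfsd2a, by distance of their leftmost bases in kb. Mfsd2a lies at -1.97 and the 7 others between -0.41 and 0.15.

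The liver samples carried hepatocyte transcripts at high level in both groups, and some markers of myeloid cells and 1 of cholangiocytes were called higher in knockout livers. None of 11 hepatocyte markers was called, and 8 of their log2 ratios were below 0, with a median of -0.13. They summed to 49368 FPKM in knockout livers and 46538 FPKM in wildtype livers, a difference in which Apoa1 weighs most, at 16007 FPKM in knockout livers and 11662 FPKM in wildtype livers. G6pc, which releases glucose from its phosphate, had the most negative ratio, -0.83 ± 0.27 (unadjusted p = 0.00221 and q = 0.1371 in the authors' deposited table). None of 8 sinusoidal endothelium markers was called, with sums of 107 FPKM in knockout livers and 113 FPKM in wildtype livers and 6 log2 ratios below 0 (median -0.18). Of 8 stellate cell and fibroblast markers 0 were called, with sums of 60.6 FPKM in knockout livers and 69.2 FPKM in wildtype livers. Their log2 ratios were below 0 in 6 cases and above 0 in 2 (median -0.15). The most negative were Reln at -0.69 ± 0.24 and Lrat at -0.64 ± 0.28 (q = 0.2006 and 0.6314 in the authors' deposited table). G6pc, Reln and Lrat, and Ngp, Ltf, Camp, Mpo, Elane, Spp1 and Ehd3 below, were chosen for naming after their values were seen.

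Of 9 tested neutrophil and monocyte markers 4 were called higher, beside 0.573% of all tested genes. All 9 log2 ratios were above 0 (median 4.19), and 7 had an unadjusted p under 0.05 in the authors' deposited table. In wildtype livers Ngp, Ltf, Camp, Mpo and Elane were at 0.0928, 0.0158, 0.0542, 0.0321 and 0.0673 FPKM. Genes not tested reached 0.679 FPKM, so these were likely tested only through their knockout level. The sign of their ratios was then fixed in advance, and the median rests on them. Ngp and Ltf are among the 4 called, and the ratio of Elane has an error of 61.65. Another 3 markers in the table were not tested. The 12 markers in the table summed to 110 FPKM in knockout livers and 8.22 FPKM in wildtype livers. Most of both sums came from S100a8 and S100a9, which are also among the 4 called. S100a8 was at 38.4 FPKM in knockout and 1.89 FPKM in wildtype livers, and S100a9 at 45.97 FPKM in knockout and 2.86 FPKM in wildtype livers. Of 11 Kupffer cell and macrophage markers 2 were called higher, and all 11 log2 ratios were above 0 (median 0.59). Of these 11, 8 had an unadjusted p under 0.05 in the authors' deposited table (5.29% of all tested genes did). They summed to 526 FPKM in knockout livers and 333 FPKM in wildtype livers. Of 6 cholangiocyte markers 1 was called higher, beside 0.573% of all tested genes, and the other 5 were not called. All 6 ratios were above 0 (median 0.20). The called one was Spp1, the secreted phosphoprotein osteopontin, at 142 FPKM in knockout livers and 62.6 FPKM in wildtype livers (log2 ratio 1.18 ± 0.25, with q = 0.000521 per the authors' deposited table). None of 4 tested lymphocyte markers was called, and the 7 in the table summed to 4.23 FPKM in knockout livers and 4.75 FPKM in wildtype livers. Scaling both groups to the same sum of FPKM left all 9 tested neutrophil and monocyte ratios above 0, under the same limit, with 4 called higher. It left 9 of the 11 Kupffer cell and macrophage ratios above 0, with 0 called, and 3 of the 6 cholangiocyte ratios. It put all 8 ratios of the endothelial and of the stellate list below 0, with 1 hepatocyte and 1 stellate marker called lower. No marker of these 7 lists was at 0 in either group. Their part in the fall of Mfsd2a was not tested, and in bulk tissue fewer cells of a type and less RNA per cell cannot be told apart. The 13 intestinal epithelium markers, listed because the series' design text speaks of intestine, summed to 98.7 FPKM in knockout livers and 82.5 FPKM in wildtype livers. Most came from Tff3, at 48.8 FPKM in knockout and 23.9 FPKM in wildtype livers, and Fabp2, at 42.9 FPKM in knockout and 54.7 FPKM in wildtype livers. Of 6 tested, 0 were called, 5 log2 ratios were above 0 (median 0.67) and 2 had an unadjusted p under 0.05 in the authors' deposited table. The targeted gene Enpp7, with 0.141 FPKM in knockout livers and 0.0541 FPKM in wildtype livers, is marked as not tested in the authors' deposited table. Its log2 ratio of 1.38 ± 1.67 is smaller than its error, so it does not check the genotype labels.

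Choline kinases, which start the CDP-choline route by making phosphocholine, held no call. Chka (chromosome 19, 3851773 to 3894369), which encodes the alpha isoform, was at 5.71 FPKM in knockout livers and 4.16 FPKM in wildtype livers. Its log2 ratio of 0.46 ± 0.29 was the largest in size among the 9 genes without a call (p = 0.113 and q = 0.9998 in the authors' deposited table). Chkb, the beta isoform, was at 14.9 FPKM in knockout livers and 13.9 FPKM in wildtype livers (log2 ratio 0.10 ± 0.29, and -0.10 with both groups set to equal sums). Chkb transcripts were 2.61 times as abundant as Chka transcripts in knockout livers and 3.35 times in wildtype livers. The table gives Chkb the same locus as Cpt1b, a muscle carnitine palmitoyltransferase (chromosome 15, 89416405 to 89429927), which was listed at 0 FPKM in knockout livers and 0.46 FPKM in wildtype livers. BC090627 has that locus too, at 0.447 FPKM in knockout livers and 0.265 FPKM in wildtype livers. Non-coding genes of RefSeq overlap Pemt, Chkb and Lpcat2. The protein-coding Capns2 also overlaps Lpcat2, by 1015 bases, at 0.0245 FPKM in knockout livers and 0 FPKM in wildtype livers. In such overlaps reads of both partners cannot be told apart without strand.

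The enzymes that activate phosphocholine and phosphoethanolamine with CTP did not pass either. Pcyt1a (chromosome 16, 32430921 to 32475065), the rate-limiting enzyme of the CDP-choline route, was at 18.0 FPKM in knockout livers and 23.1 FPKM in wildtype livers. Its log2 ratio was -0.36 ± 0.26, with p = 0.16 in the authors' deposited table. Pcyt2 (chromosome 11, 120610087 to 120617890), its counterpart for ethanolamine, was at 279 FPKM in knockout livers and 269 FPKM in wildtype livers (log2 ratio 0.05 ± 0.25, which was -0.14 with both groups set to equal sums and -0.09 after quantile normalization). Pcyt2 was 15.5 times as abundant as Pcyt1a in knockout livers and 11.6 times in wildtype livers. It lies 1.62 Mb from Enpp7 on the same chromosome.

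Pemt (chromosome 11, 59970617 to 60036839), the methyltransferase that turns phosphatidylethanolamine into phosphatidylcholine, was the most abundant of the 10 genes in both groups. It was at 486 FPKM in knockout livers and 413 FPKM in wildtype livers, a log2 ratio of 0.23 ± 0.24 (p = 0.323 in the authors' deposited table). In wildtype livers its level was above that of 98.1% of tested genes. Pemt and Pcyt2 together held 87.1% of the summed FPKM of the 10 genes in knockout livers and 81.3% in wildtype livers. The sum itself was 879 FPKM in knockout livers and 840 FPKM in wildtype livers.

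**Figure D3:**
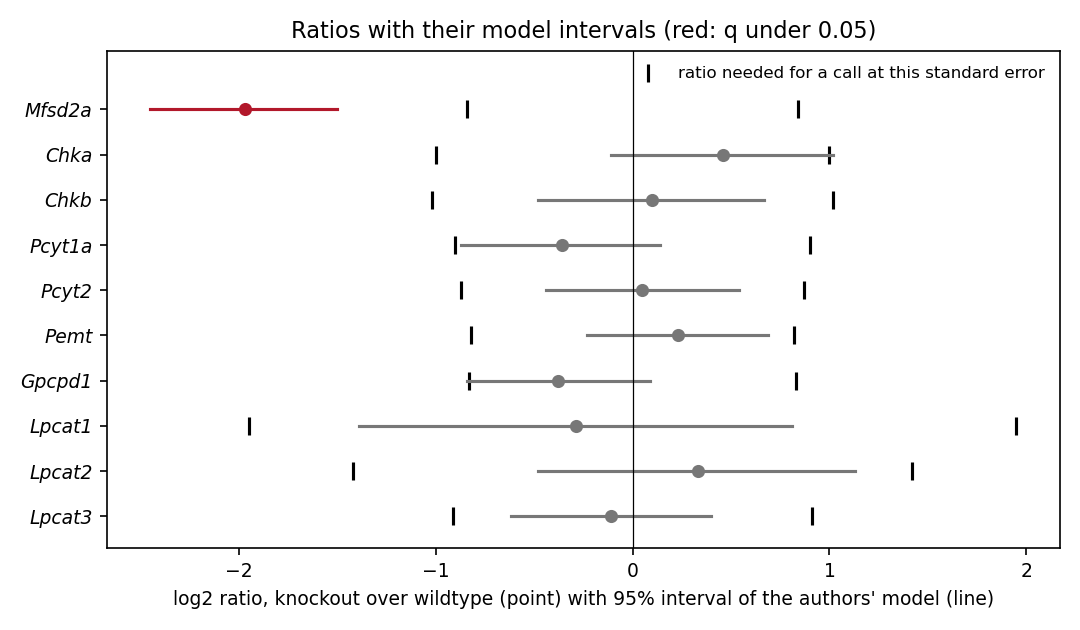
The log2 ratio of knockout over wildtype (points) with the 95% interval from the authors' z statistic (lines) for the 10 genes; black ticks mark the ratio each gene would have needed for a call at its standard error. The Mfsd2a interval, from -2.45 to -1.50, lies beyond its tick at -0.84, and the other 9 intervals include 0.

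The lysophosphatidylcholine acyltransferases, which put a fatty acid back on lysophosphatidylcholine, held no call. Lpcat3 was far above Lpcat1 and Lpcat2 in level in both groups. Lpcat3 (chromosome 6, 124663104 to 124712178, a locus it shares with Emg1 in the table), the main form in liver with a preference for polyunsaturated fatty acids, was at 40.5 FPKM in knockout livers and 43.7 FPKM in wildtype livers (log2 ratio -0.11 ± 0.26). In RefSeq it overlaps Emg1, a ribosome assembly gene, by 347 bases. Emg1 was at 43.2 FPKM in knockout livers and 37.6 FPKM in wildtype livers, and without a statement on strand some reads may belong to either. Lpcat3 was 59.0 times as abundant as Lpcat1 in knockout livers and 52.1 times in wildtype livers.

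Lpcat1 (chromosome 13, 73467383 to 73514538), known for making surfactant lipid in lung, was the lowest of the 10 genes, at 0.686 FPKM in knockout livers and 0.839 FPKM in wildtype livers. Its log2 ratio was -0.29 ± 0.56. Lpcat2 (chromosome 8, 92855350 to 92919279), which in inflammatory cells also makes platelet-activating factor, was at 1.33 FPKM in knockout livers and 1.06 FPKM in wildtype livers. Its log2 ratio was 0.33 ± 0.41, with p = 0.424 in the authors' deposited table. The part of neutrophils and monocytes in this ratio was not tested. At these low levels Lpcat1 would have needed a log2 ratio of 1.95 in size for a call and Lpcat2 one of 1.42, against 0.82 for Pemt.

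Gpcpd1 (chromosome 2, 132529083 to 132578248), which splits glycerophosphocholine and so returns choline, was at 22.0 FPKM in knockout livers and 28.6 FPKM in wildtype livers. Its log2 ratio was -0.38 ± 0.24, with p = 0.113 in the authors' deposited table. Of the 9 genes without a call, 4 had ratios below 0 and 5 above 0, or 6 and 3 with both groups set to equal sums. Their median was 0.05 and their median size 0.29. The median size over all tested genes was 0.17. The intervals of these 9 ratios do not show that the genes were alike in both groups. They reached down to -1.39 (Lpcat1) and up to 1.13 (Lpcat2), and for Pemt, the most precise, they ran from -0.23 to 0.69.

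**Figure D4:**
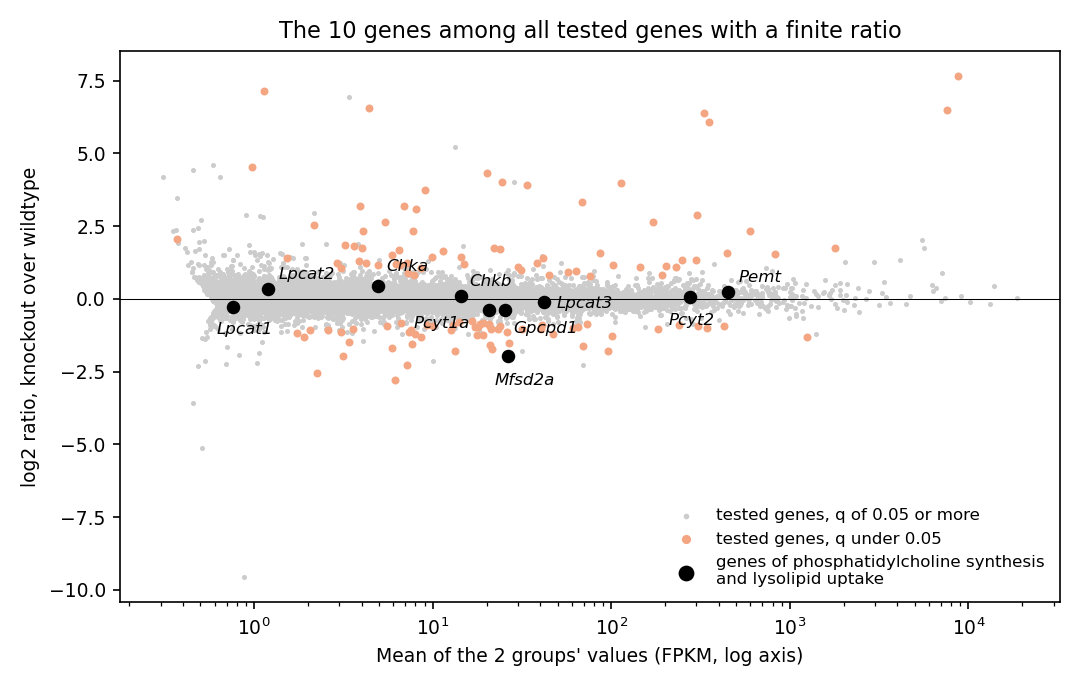
The log2 ratio of knockout over wildtype against the mean of the 2 group values in FPKM (log axis) for tested genes with a finite ratio; orange points have q under 0.05 and labelled black points are the 10 genes. Mfsd2a lies at the lower edge at -1.97, and the other 9 lie between -0.38 and 0.46 within the grey cloud.

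Other genes that supply, use or move phosphatidylcholine and its lysolipids held 1 call among 59 tested genes (1.69%, beside 1.08% of all tested genes). These genes stand in 7 lists of 72 genes in the table. The called gene was Lipg, endothelial lipase, a secreted phospholipase of high-density lipoprotein that releases lysophosphatidylcholine. Lipg (chromosome 18, 74939322 to 74961263) fell to 4.94 FPKM in knockout livers, against 12.4 FPKM in wildtype livers. Its log2 ratio was -1.32 ± 0.25, with q = 4.47e-05 per the authors' deposited table. Of the 8 sinusoidal endothelium markers 0 were called, with 6 log2 ratios below 0 and 2 above 0 (median -0.18). The most negative was that of Ehd3, an endocytic trafficking protein, at 10.96 FPKM in knockout livers and 15.96 FPKM in wildtype livers. Its log2 ratio was -0.54 ± 0.23 (unadjusted p = 0.0179 and q = 0.5708 in the authors' deposited table). The part of these markers in the fall of Lipg was not tested. Lipg had the 15th most negative ratio among the 58 genes called lower, and the 32nd among all tested genes with a finite ratio. Over all 59 tested genes the median log2 ratio was -0.06 with 33 below 0, beside a median of -0.0012 over all tested genes.

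In the list on release and breakdown of lysolipids, which holds Lipg, 20 genes were tested, 1 was lower and 19 did not pass. Of these 19, 4 had an unadjusted p under 0.05 in the authors' deposited table, beside 5.29% of all tested genes, and they were chosen for naming after their values were seen. Pla2g12b, a catalytically inactive member of the phospholipase A2 family that acts in lipoprotein secretion, was at 59.8 FPKM in knockout livers and 35.8 FPKM in wildtype livers (log2 ratio 0.74 ± 0.23, with q = 0.1023 per the authors' deposited table). Pla2g6, a calcium-independent phospholipase A2, was at 10.04 FPKM in knockout livers and 15.8 FPKM in wildtype livers (log2 ratio -0.66 ± 0.28). Lypla1, an acyl-protein thioesterase and lysophospholipase, was at 32.3 FPKM in knockout livers and 44.3 FPKM in wildtype livers (log2 ratio -0.45 ± 0.22). Gde1, a glycerophosphodiesterase, was at 40.3 FPKM in knockout livers and 54.7 FPKM in wildtype livers (log2 ratio -0.44 ± 0.22).

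The other 6 lists held no call. Of 7 tested genes of the CDP-choline and CDP-ethanolamine routes, Agxt2l1 (now Etnppl), which breaks down phosphoethanolamine, had the smallest p, at 38.9 FPKM in knockout livers and 60.4 FPKM in wildtype livers (log2 ratio -0.63 ± 0.23, with q = 0.2841 per the authors' deposited table). It passed, as lower, when the FPKM of both groups were set to equal sums. Of 6 tested genes of phosphatidylcholine transfer and export, Pctp, the phosphatidylcholine transfer protein, was at 35.8 FPKM in knockout livers and 47.1 FPKM in wildtype livers (log2 ratio -0.39 ± 0.22).

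For the remaining 4 lists the gene with the smallest p is likewise given as values only. Among 9 tested genes of S-adenosylmethionine supply and use, which feeds the Pemt reaction, Nnmt, a methyltransferase of nicotinamide, was at 199 FPKM in knockout livers and 158 FPKM in wildtype livers (log2 ratio 0.34 ± 0.23). Among 10 tested genes of choline uptake and oxidation, Dmgdh, dimethylglycine dehydrogenase, was at 113 FPKM in knockout livers and 142 FPKM in wildtype livers (log2 ratio -0.33 ± 0.24). Among 4 tested other acyltransferases, Lpgat1 was at 22.5 FPKM in knockout livers and 28.5 FPKM in wildtype livers (log2 ratio -0.34 ± 0.23). Among 3 genes of the phosphatidylserine route, Ptdss2, a phosphatidylserine synthase, was at 7.24 FPKM in knockout livers and 6.59 FPKM in wildtype livers (log2 ratio 0.13 ± 0.27).

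**Figure D5:**
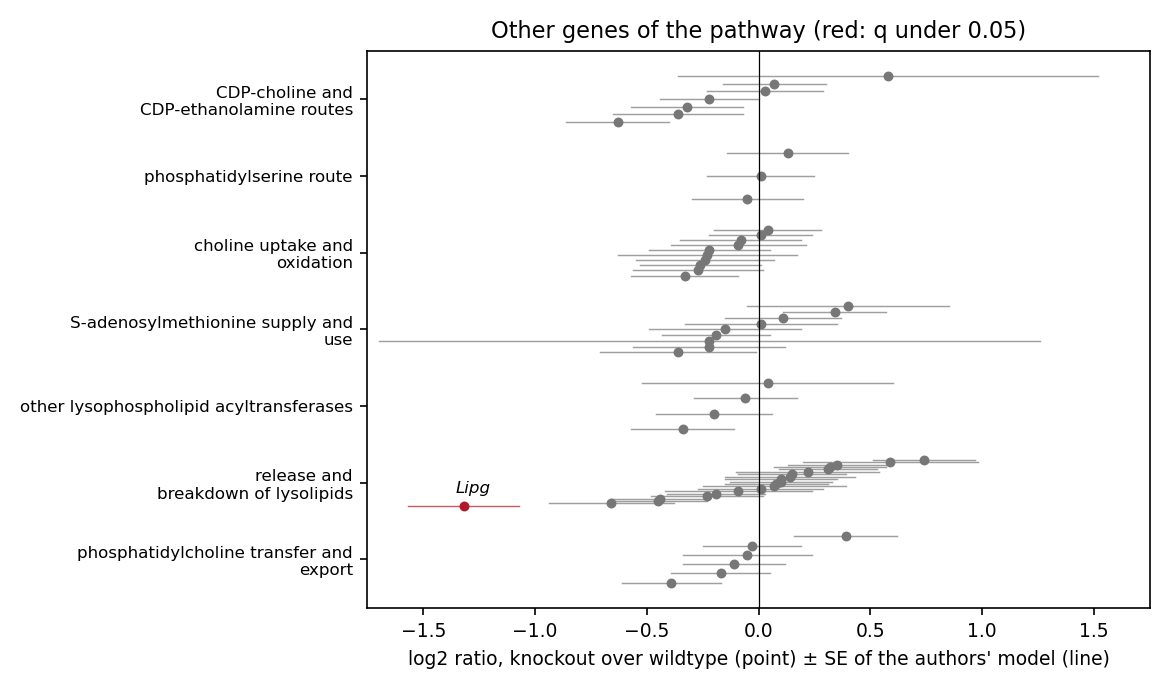
The log2 ratio of knockout over wildtype with its standard error for the 59 tested genes of the 7 other lists, 1 band per list. Lipg lies at -1.32 and is the only one with q under 0.05, and the rest lie between -0.66 and 0.74.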

How the data were processed

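The labels name liver as the tissue, while the series' design text speaks of intestine. RNA was made into TruSeq libraries from 1 ug each and sequenced as single 50 nt reads, per the labels' protocols and design text. Bowtie2 and mm10 are named, without versions, per the submitters' processing notes. The authors deposited 1 FPKM value per group; the unit was read from the table's layout, which is that of Cuffdiff, since the file headers do not name it. The log2 ratio is deposited as wildtype over knockout, and its sign was turned. It and the deposited test statistic (a score, read as z) carry the authors' p-value and q-value. The q was the Benjamini-Hochberg adjustment over 11515 tested genes (largest difference 1.99e-06).

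The standard error of a ratio is the ratio divided by z, and 95% intervals assume a normal error. Depth is unknown, so no counting interval is given. The planned limma test needs values per library and was replaced by the authors' test. No source says that the libraries of a group are separate cultures or litters beyond the animal numbers. The table holds 0 columns of other samples. Starts had 1 added to count from 1. Python 3.11.15, pandas 2.3.3 and SciPy 1.17.1 were used, and the recalculation was tested on simulated data.

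The genes and lists were chosen with earlier results of these data known. Named are the 10 genes, called genes of the 7 lists, the smallest p of a list with no call, and at most 2 of the highest genes per marker list; others are said to be chosen later. Alternatives were the pseudocount, the scaling, the filter on low values and the threshold.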

Additional observations from a re-analysis of the deposited data

How the results depend on the processing

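Mfsd2a was lower and called under every alternative that has a test (both scalings, both filters and both other thresholds), with log2 ratios from -2.17 to -1.88 over the scalings and the pseudocounts of 1, 0.5 and 0.1. Lipg was called under all 6 alternatives. Both other thresholds are looser than q under 0.05, so a called gene passes them in any case. The filters kept the authors' p-values and changed only their adjustment. The scalings changed the ratios and kept the authors' standard errors. Scaling both groups to the same sum of FPKM moved the median of all tested genes to -0.20, the calls in the table to 189 (140 lower and 49 higher, against 58 and 66) and the calls among the 59 other genes to 2, by adding Agxt2l1. There the ratios of Pcyt2 and Chkb turned to -0.14 and -0.10, and quantile normalization turned that of Pcyt2 to -0.09. At an unadjusted p under 0.05 the counts were 609 in the table and 6 among the other genes. The cause of these shifts was not tested. Leaving out a replicate was not run, because the values are 1 per group. No paired analysis was possible because each group has 1 value and the sample numbers named for the groups are not shared between them.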
